A study of Mus musculus with 24 samples.

Results

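The genes followed here are the YAP, TEAD, angiomotin and Vgll genes Yap1, Wwtr1, Tead1, Tead2, Tead3, Tead4, Amot, Amotl1, Amotl2 and Vgll3. They were chosen by name, for their place in the Hippo pathway, with earlier results of these data known. All 10 were found among the 20351 protein-coding genes of the deposited count table. All 10 also passed the filter on low counts, with 14411 genes tested in all. The libraries were made from HL-1 cells, a line derived from mouse atrial cardiomyocytes, after knockdown of MuRF1, a muscle ubiquitin ligase encoded by Trim63, with or without cyclic stretch. There were 4 groups of 6 libraries, named here as stretched knockdown, stretched control, non-stretched knockdown and non-stretched control cells. Knockdown cells had received an adenovirus with a short hairpin RNA against MuRF1, and control cells an adenovirus with a scrambled hairpin, so that every group carried virus, at 30 MOI (infectious units per cell) for 48 h. Stretched cells were extended by 15% at 1 Hz for 60 min and harvested directly afterwards, and non-stretched cells were kept in parallel. All cells stood in serum-free medium.

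Hippo signalling ends in a kinase cascade that phosphorylates the coactivators YAP (Yap1) and TAZ (Wwtr1) and keeps them in the cytoplasm. When the kinases are less active, as under mechanical tension, YAP and TAZ enter the nucleus and bind the TEAD factors, which carry the DNA-binding domain and recognise the sequence GGAATG or its reverse complement CATTCC. Angiomotins bind YAP and TAZ at junctions and actin filaments, and Vgll proteins occupy the same face of TEAD as YAP does. Amotl2 is itself a widely used target gene of YAP and TEAD. In the heart the pathway is known for its control of cardiomyocyte growth.

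The model has limits that touch every value below. HL-1 is a single cell line, no label states that the 6 replicates of a group were grown as separate cultures, and p-values therefore cover only the spread between these libraries, which may be technical. The labels describe the stretch as uniaxial in one field and biaxial in another. A number in the library codes is constant within each group, so a batch that it might mark and the group cannot be told apart. Total estimated counts ran from 23.6 M in stretched control replicate 5 to 54.8 M, with at least 37.7 M in each other library. The shallow library also stood apart on the second principal component, at 54.7 against -14.9 to 13.2 in the other 23, and results that change without it are given both ways. Trim63 averaged 68.5 ± 7.91 CPM in stretched knockdown against 781 ± 81.7 CPM in stretched control cells, and 55.7 ± 1.17 CPM in non-stretched knockdown against 640 ± 68.1 CPM among non-stretched control cells (SD, n = 6 each). Levels are CPM, a gene's counts relative to the library total, after scaling of the libraries with edgeR's TMM factors, unless a level per length is named.

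Markers of the labelled cell type moved with the knockdown. The summed level of 10 cardiomyocyte markers was 1420 to 1490 CPM in stretched knockdown against 2470 to 2880 CPM in stretched control libraries, and 1280 to 1380 CPM in non-stretched knockdown against 2500 to 2770 CPM in non-stretched control libraries. Of these 10 genes, 8 fell and 1, Nkx2-5, rose in both knockdown comparisons. Of all genes, 26.9% fell and 25.1% rose with stretch, and 29.7% and 28% without. Nppa, the atrial natriuretic peptide that defines atrial muscle, stayed under 1 CPM in every library. Stretch raised 5 and lowered 0 of the 10 in knockdown cells, where 5.32% of all genes rose and 3.61% fell. In control cells it raised 1 and lowered 0, where 2.55% rose and 3.39% fell. The sum of 8 fibroblast markers was 95.6 to 101 CPM in stretched knockdown against 216 to 243 CPM in stretched control libraries, and 79.9 to 97.4 CPM in non-stretched knockdown against 244 to 250 CPM in non-stretched control libraries, with Col1a2, Lum and Tcf21 under 1 CPM throughout. Smooth muscle markers summed to 1730 to 1820 CPM in stretched knockdown, 2340 to 2730 CPM in stretched control, 1610 to 1750 CPM in non-stretched knockdown and 2350 to 2570 CPM in non-stretched control libraries. Most of this sum was Acta2, at a mean of 1620 CPM in stretched knockdown against 2430 CPM in stretched control cells. Of the 4 markers, 2 fell and 1 rose with the knockdown in stretched cells, where 26.9% of all genes fell and 25.1% rose. In non-stretched cells 2 fell and 0 rose, where 29.7% fell and 28% rose. Endothelial markers summed to 7.56 to 8.18 CPM in stretched knockdown against 8.75 to 10.2 CPM in stretched control libraries, and to 7.11 to 9.07 CPM in non-stretched knockdown against 9.21 to 10.1 CPM in non-stretched control libraries. Macrophage markers summed to 2.59 to 3.7 CPM in stretched knockdown against 1.74 to 3.26 CPM in stretched control libraries, and to 1.82 to 2.32 CPM in non-stretched knockdown against 1.39 to 1.83 CPM in non-stretched control libraries, and 1 of them, Cd68, was called higher in all 4 comparisons. Pecam1, Cdh5, Vwf, Adgre1 and Csf1r were each under 1 CPM. The other endothelial markers were higher, with group means of 5.25 to 5.85 CPM for Kdr. Tek averaged 2.41 CPM in stretched knockdown against 3.7 CPM in stretched control cells. Without stretch it averaged 2.14 CPM in knockdown against 3.42 CPM in control cells. Of 4 listed macrophage markers 3 were in the count table, without Ptprc. No marker analysed stood at 0 in all libraries. The part of these shifts in the results below was not tested, and in such bulk libraries fewer cells of a type and less RNA per cell cannot be told apart.

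The knockdown raised 1 and lowered 4 of the 10 genes with stretch, where 25.1% of all genes tested rose and 26.9% fell, and it raised 1 and lowered 3 without stretch, where 28% rose and 29.7% fell. Amotl2 changed most among the well-expressed ones. Amotl2, which encodes an angiomotin, rose 2.36-fold with stretch and 2.24-fold without. Tead2, Tead3 and Amot fell in both settings, Tead3 most, and Vgll3 fell by 66.1% in stretched cells. With library totals in place of TMM factors, the calls of Tead2 were lost in both settings and that of Amot without stretch. Both coactivator genes and Tead1, the most abundant TEAD gene by count, stayed within a few percent of control with TMM factors. With library totals these genes were called higher in both settings, at log2 fold changes of 0.09 to 0.16. Stretch itself raised Amotl2 in both kinds of cell. It lowered Vgll3 in knockdown cells, a call lost under 4 alternatives, while the value in control cells was positive and did not pass. The difference between the 2 responses did not pass the adjusted test with all libraries and passed without stretched control replicate 5.

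The TEAD recognition sequence was searched on both strands of the promoter windows of these genes. The windows run from 250 bases before to 50 after each annotated start, are those of RefSeq on GRCm38.p6, and were given for 8 of the 10 genes. GGAATG or CATTCC occurred in at least 1 window of 5 of these 8 genes, against 4481 of 27025 genes (16.6%). By window it occurred in 7 of their 11, against 4817 of 32851 windows of the same length (14.7%). Windows of the same gene can overlap and share a match. A match is only a match of letters, and no binding was measured in these cells. The 30 bases around the match are shown for these 5 genes in the 5′ to 3′ direction of the gene, with the motif in capitals.
Amotl2, plus strand, window chr9:102717554-102717853, match at -65: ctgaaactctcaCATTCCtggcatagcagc
Tead3, minus strand, window chr17:28350551-28350850, matches at -123 and -114: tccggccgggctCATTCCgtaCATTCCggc
Vgll3, plus strand, window chr16:65814939-65815238, match at -63: cccgcctccccaCATTCCggctaccctgcc
Yap1, minus strand, window chr9:8004547-8004846, match at -141: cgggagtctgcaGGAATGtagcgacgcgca
Wwtr1, minus strand, window chr3:57575827-57576126, match at -170: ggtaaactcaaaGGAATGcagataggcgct
The 5 genes with a match include Amotl2 and Tead3, called for the knockdown in both settings, and Vgll3, called with stretch only. They also include both coactivator genes, which did not pass its test. Of all genes tested, 25.1% rose and 26.9% fell with the knockdown in stretched cells, and 28% rose and 29.7% fell in non-stretched cells. The windows of Tead2 and Amot, which fell, held no match. The Tead3 window shown held a further match just after its start, and its pair of CATTCC copies lies 9 bases apart from start to start. Tead3 had 3 windows. That at chr17:28350756-28351055 held GGAATG at -182, and that at chr17:28350297-28350596 held no match.

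The 10 genes were read from a fit of all 14411 genes, called where the Benjamini-Hochberg adjusted p of edgeR's quasi-likelihood test was under 0.05, and compared with the share of all genes called. For the knockdown, the 6 values of each group did not overlap for 4 of the 10 genes with stretch and 3 without, against 31.9% and 37.8% of all genes. Stretch in knockdown cells raised 1 and lowered 1 of the 10, against 5.32% and 3.61% of all genes, and left 1 gene without overlap, against 5.43%. In control cells it raised 1 and lowered 0, against 2.55% and 3.39%, again with 1 gene without overlap, against 3.19%. Tead2 was lower there at an unadjusted p of 0.011, and DESeq2 likewise called 0 lower. Without stretched control replicate 5, stretch in control cells raised 3 and lowered 1 of the 10, where 14% of all genes were called. With 10 genes, the counts for the knockdown are close to the shares of all genes. The median log2 fold change of the 10 was -0.02 with and -0.04 without stretch for the knockdown, against 0.002 and 0.009 over all genes. For stretch it was 0.01 in knockdown and 0.02 in control cells, against -0.005 and -0.011.

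**Figure D1:**
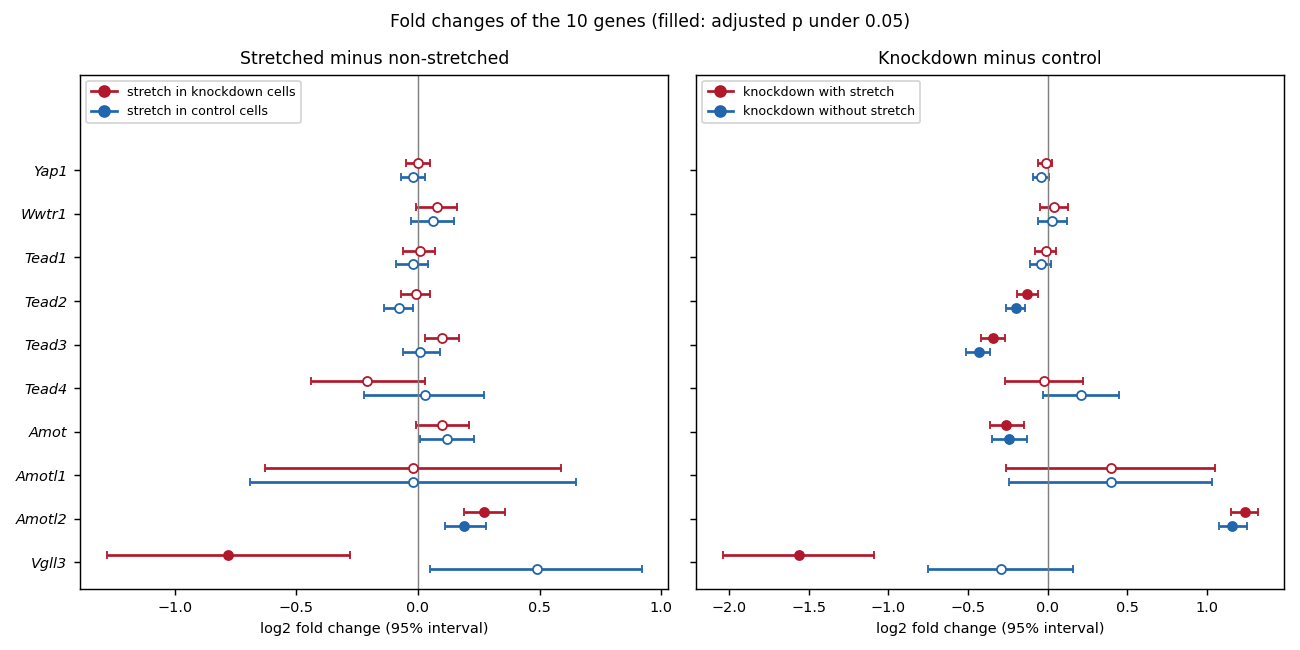
Log2 fold change of each gene with its 95% interval on the horizontal axis, for stretch (left panel) and for the knockdown (right panel), with filled points where the adjusted p was under 0.05. Amotl2 lies at 1.24 and 1.16 in the knockdown comparisons and Vgll3 at -1.56 with stretch, while Yap1, Wwtr1 and Tead1 lie close to 0 throughout.

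The interaction, the stretch response of knockdown cells minus that of control cells, was called for none of the 10 genes, where 3 of 14411 genes (0.0208%) were called. At an unadjusted p under 0.05 it picked out 1 of the 10, Vgll3, where 1355 of all genes (9.4%) reached that level, and DESeq2 called none of the 10, giving Vgll3 no adjusted p. Without stretched control replicate 5, edgeR called 109 genes in all (0.753%), Vgll3 among them.

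Yap1 encodes the coactivator YAP and lies at chr9:7931999-8004596 on the minus strand of GRCm38. Its level was 111 CPM at the lowest, 113 CPM at the median and 118 CPM at the highest in stretched knockdown libraries, against 113, 115 and 119 CPM in stretched control libraries. Non-stretched knockdown libraries had 110, 114 and 116 CPM, against 114, 116 and 122 CPM in non-stretched control libraries. All 4 groups overlapped within a range of 12 CPM over the 24 libraries. The log2 fold change for the knockdown was -0.01 (95% interval -0.06 to 0.03, adjusted p = 0.634) with stretch and -0.04 (-0.09 to 0.01, adjusted p = 0.137) without. For stretch it was 0.00 (-0.05 to 0.05, adjusted p = 0.954) in knockdown cells and -0.02 (-0.07 to 0.03, adjusted p = 0.627) in control cells. These are the narrowest intervals among the 10 genes, and they hold no change beyond 0.09 in either direction.

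Wwtr1 encodes TAZ, the close relative of YAP, at chr3:57455649-57575910 on the minus strand. Lowest, median and highest levels were 154, 158 and 163 CPM in stretched knockdown libraries, against 127, 158 and 161 CPM in stretched control libraries. They were 141, 149 and 162 CPM in non-stretched knockdown libraries, against 142, 146 and 155 CPM in non-stretched control libraries. The medians of the stretched groups were the higher ones, but the groups overlapped, and 1 low library, stretched control replicate 5 at 127 CPM, widened its group. The log2 fold change for stretch was 0.08 (SE 0.0427, adjusted p = 0.311) in knockdown cells and 0.06 (SE 0.0428, adjusted p = 0.47) in control cells. Without that library the value in control cells was 0.10 (SE 0.0302) and passed the test (adjusted p = 0.0202). For the knockdown it was 0.04 (adjusted p = 0.415) with stretch and 0.03 (adjusted p = 0.623) without.

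The size of these small knockdown values, and for Yap1 the direction too, depended on how the libraries were scaled. TMM factors were 1.02 to 1.06 in knockdown libraries and 0.937 to 0.973 in control libraries other than stretched control replicate 5, which had 1.04. With library totals alone, the median of all genes moved up by 0.115 in the comparison with stretch and by 0.131 in that without, on the log2 scale, and 72.6% and 72.1% of the calls were then higher in knockdown cells, against 48.3% and 48.5% with TMM factors. On that scale the knockdown values became 0.10 with and 0.09 without stretch for Yap1 (adjusted p = 0.00123 and 0.00249), and 0.16 in both settings for Wwtr1 (adjusted p = 0.000108 and 0.000118). These values are close to the shift of the median gene itself.

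Tead1 is the TEAD gene most studied in heart muscle and lies at chr7:112679318-112906807 on the plus strand. Its lowest, median and highest levels were 305, 308 and 315 CPM in stretched knockdown libraries, against 303, 307 and 332 CPM in stretched control libraries. Non-stretched knockdown libraries had 287, 305 and 329 CPM, against 305, 318 and 328 CPM in non-stretched control libraries. The groups overlapped throughout. No comparison passed the test, with log2 fold changes of -0.01 (95% interval -0.08 to 0.05) and -0.04 (-0.11 to 0.02) for the knockdown with and without stretch, which became 0.10 and 0.09 with library totals alone (adjusted p = 0.0156 and 0.0344). For stretch they were 0.01 (-0.06 to 0.07) in knockdown and -0.02 (-0.09 to 0.04) in control cells.

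Tead2, at chr7:45215753-45233644 on the plus strand, encodes a TEAD factor best known from early embryos. Stretched knockdown libraries had 101, 103 and 106 CPM at the lowest, median and highest, against 108, 111 and 120 CPM in stretched control libraries. Non-stretched knockdown libraries had 99.9, 102 and 111 CPM, against 115, 120 and 123 CPM in non-stretched control libraries. Every knockdown library was below every control library of its setting. The log2 fold change was -0.13 with stretch (SE 0.0299, adjusted p = 0.000874) and -0.20 without (SE 0.0298, adjusted p = 2.24e-06). With library totals alone it was -0.01 and -0.07, and neither passed the test (adjusted p = 0.774 and 0.123). Stretch gave -0.01 in knockdown cells (adjusted p = 0.899) and -0.08 in control cells (SE 0.0299, adjusted p = 0.103), and the value in control cells passed without stretched control replicate 5, at -0.10 (adjusted p = 0.0217).

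Tead3 had the largest fall among the TEAD genes. It lies at chr17:28331671-28350817 on the minus strand, and its product is a TEAD factor known from placenta and muscle. Its lowest, median and highest levels were 57.6, 58.1 and 59.7 CPM in stretched knockdown libraries, against 72, 73.5 and 77 CPM in stretched control libraries. They were 50, 54.7 and 58.3 CPM in non-stretched knockdown libraries, against 68.7, 73.8 and 80.5 CPM in non-stretched control libraries. The gap between the groups exceeded the range within each knockdown group, and no values overlapped. The log2 fold change was -0.34 with stretch (SE 0.0355, adjusted p = 3.88e-09), or 0.787 times the control level, and -0.43 without (SE 0.0355, adjusted p = 3.5e-11), or 0.741 times the control level. It kept its sign and passed under every alternative run, the smallest values being -0.23 and -0.30 with library totals alone. Stretch gave 0.10 in knockdown cells (SE 0.0357, adjusted p = 0.0808) and 0.01 in control cells (adjusted p = 0.888), and the interaction was 0.09 (SE 0.0501, adjusted p = 0.607).

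Tead4, at chr6:128224288-128300823 on the minus strand and known for its part in forming the trophectoderm, was the least expressed TEAD gene. Lowest, median and highest levels were 3.35, 4.37 and 5.2 CPM in stretched knockdown, 3.48, 4.41 and 5.89 CPM in stretched control, 4.35, 5 and 5.45 CPM in non-stretched knockdown and 3.61, 4.03 and 5.25 CPM in non-stretched control libraries. All groups overlapped. Stretch gave -0.21 in knockdown cells (95% interval -0.44 to 0.03, adjusted p = 0.301) and 0.03 in control cells (-0.22 to 0.27, adjusted p = 0.928), and the interaction was -0.23 (-0.57 to 0.11, adjusted p = 0.695). The knockdown without stretch gave 0.21 (-0.03 to 0.45, adjusted p = 0.125), which was 0.34 with library totals alone (adjusted p = 0.0197). With stretch it was -0.02 (-0.27 to 0.22, adjusted p = 0.88), and its sign turned with library totals and without stretched control replicate 5.

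Within the TEAD family, levels were compared per length, as counts divided by the length of the gene's coding transcripts and rescaled to the total of a CPM table in every library, here called per-length CPM. With the median annotated transcript length, Tead1 made up 55.2% and Tead2 39.0% of the summed TEAD level in stretched knockdown cells, against 52.8% and 40.4% in stretched control cells. Tead3 made up 5.19% and 6.25% there, and 4.86% in non-stretched knockdown against 6.01% in non-stretched control cells. Tead4 held 0.512% to 0.645% over the 4 groups. The order of the first 2 genes rests on the length chosen. Median and longest lengths were 1248 and 9964 bases for Tead1, 592 and 3396 for Tead2, but 2516.5 and 2775 for Tead3. With the longest transcript, Tead1 held 36.9% and Tead2 36.3% in stretched knockdown cells, and 33.5% and 37.1% in non-stretched control cells, while Tead3 held 25.1% in stretched knockdown against 28.9% in stretched control, and 23.8% in non-stretched knockdown against 28% in non-stretched control cells. With either length Tead3 held a smaller share in knockdown cells and Tead4 the smallest share of all.

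**Figure D2:**
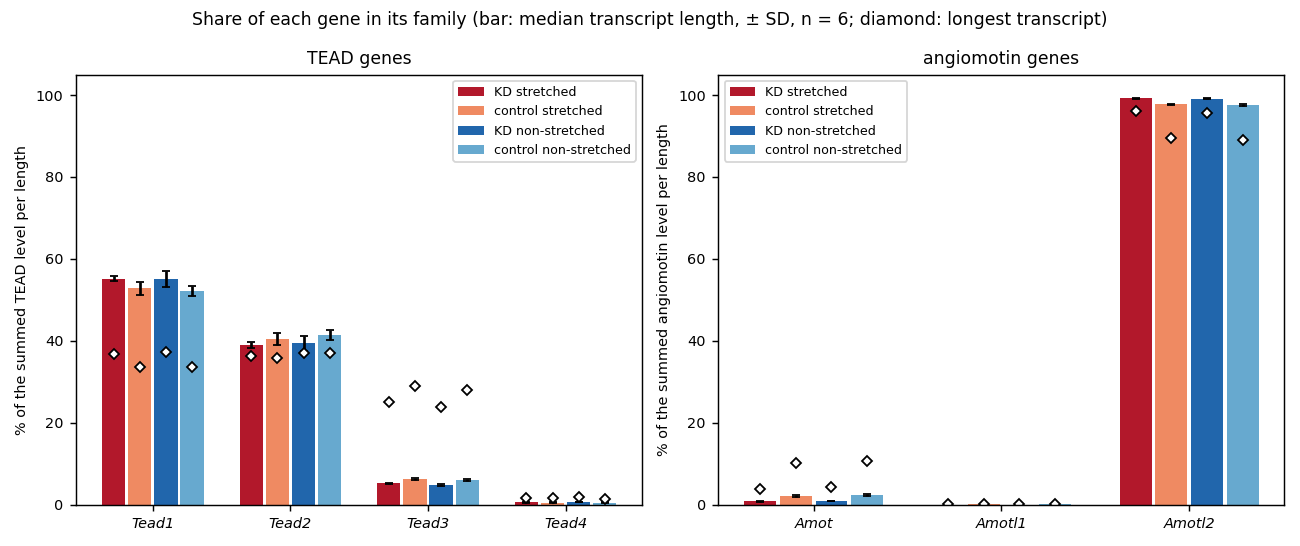
Percent of the summed per-length level of the TEAD genes (left panel) and the angiomotin genes (right panel) held by each gene, by group, with bars for the median transcript length (mean ± SD, n = 6) and diamonds for the longest transcript. Tead1 and Tead2 hold most of the TEAD level with the median length but Tead3 approaches them with the longest, and Amotl2 holds 89% or more of the angiomotin level in every group with both.

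The same per-length scale gives the order of all 10 genes in non-stretched control cells. With the median length, Tead1 stood at 375, Tead2 at 298 and Amotl2 at 168 per-length CPM, followed by Wwtr1 at 47.1, Tead3 at 43.3 and Yap1 at 42. Amot stood at 4.02, Tead4 at 3.69, Vgll3 at 0.197 and Amotl1 at 0.128 per-length CPM. With the longest transcript the first 6 ran Tead2, Tead1, Wwtr1, Yap1, Tead3 and Amotl2, from 80.7 to 47.2 per-length CPM, and the order of the last 4 was the same. The median length of Amotl2 was 781 bases against 4328 for its longest transcript, and Tead1 and Tead2 also had medians far below their longest. For Yap1 the lengths were 4115 and 4171 bases, and for Wwtr1 4615 and 4697. Amotl2 was thus ahead of Wwtr1, Tead3 and Yap1 with the median length and behind them with the longest. Tead2 and Tead1 kept the first places with the longest transcript, by less. There Tead1 stood at 72.9 ± 3.14 and Wwtr1 at 71.9 ± 1.98 per-length CPM (SD, n = 6 each). How far short annotated transcripts set the levels with the median length was not tested. Amot and Tead4 differed by less than the SD of Tead4 with the median length (0.648 per-length CPM), as did Tead3 and Yap1 from each other with the SD of Tead3 (3.08 per-length CPM).

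Amot encodes angiomotin, which binds YAP and is a substrate of the LATS kinases, and lies at chrX:145446425-145505181 on the minus strand. Its lowest, median and highest levels were 14.6, 15.8 and 16.8 CPM in stretched knockdown libraries, against 16.3, 19.2 and 20 CPM in stretched control libraries. They were 13.6, 14.5 and 16.3 CPM in non-stretched knockdown libraries, against 16.2, 17.2 and 18.4 CPM in non-stretched control libraries. Most knockdown libraries lay below the control libraries, with a small overlap in both settings, with stretch through stretched control replicate 5 at 16.3 CPM. The log2 fold change for the knockdown was -0.26 with stretch (SE 0.0523, adjusted p = 0.000165) and -0.24 without (SE 0.0526, adjusted p = 0.00039). With library totals alone these became -0.14 (adjusted p = 0.0152) and -0.10 (adjusted p = 0.0625). For stretch it was 0.10 in knockdown cells (SE 0.0528, adjusted p = 0.255) and 0.12 in control cells (SE 0.0521, adjusted p = 0.163). In control cells it was 0.16 and passed without stretched control replicate 5 (adjusted p = 0.0302), and 0.17 with the authors' own scaling (adjusted p = 0.0452).

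Amotl1, an angiomotin relative at chr9:14541966-14645056 on the minus strand, was near the limit of detection. Its libraries held 5.3 to 21 estimated counts each, which is 0.247, 0.333 and 0.447 CPM at the lowest, median and highest in stretched knockdown, 0.17, 0.223 and 0.613 CPM in stretched control, 0.202, 0.35 and 0.476 CPM in non-stretched knockdown and 0.103, 0.284 and 0.378 CPM in non-stretched control libraries. All groups overlapped, and the highest value was again that of stretched control replicate 5. The knockdown gave 0.40 with stretch (95% interval -0.26 to 1.05, adjusted p = 0.305) and 0.40 without (-0.24 to 1.03, adjusted p = 0.28), and differences within those intervals were not detectable at this depth. Without that library the value with stretch was 0.69 (adjusted p = 0.0455).

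Amotl2 encodes the third angiomotin, which couples junctions to actin, and lies at chr9:102716672-102733418 on the plus strand. In stretched knockdown libraries its lowest, median and highest levels were 232, 240 and 253 CPM, against 96.4, 102 and 108 CPM in stretched control libraries. In non-stretched knockdown libraries they were 181, 202 and 207 CPM, against 80.1, 89.9 and 95.8 CPM in non-stretched control libraries. Every knockdown library stood far above every control library, and within each kind of cell every stretched library stood above every non-stretched one. This made Amotl2 the only gene of the 10 whose 4 groups were fully separated.

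Amotl2 rose with the knockdown by a log2 fold change of 1.24 with stretch (SE 0.0407, adjusted p = 2.59e-19) and by 1.16 without (SE 0.0407, adjusted p = 5.04e-19). By the size of its fold change it ranked 413 and 615 of 14411 genes in these comparisons. Stretch raised it by 0.27 in knockdown cells (SE 0.0397, adjusted p = 4.76e-05), or 20.8%, and by 0.19 in control cells (SE 0.0407, adjusted p = 0.00483), or 14.4%. These calls were made under all the alternatives run, including without stretched control replicate 5 (0.18 in control cells, adjusted p = 0.00424). The stretch responses differed by 0.08 (SE 0.0569, 95% interval -0.04 to 0.20, adjusted p = 0.708), so a difference between knockdown and control cells was not shown. Knockdown cells without stretch, at 199 ± 9.59 CPM, already stood above stretched control cells, at 102 ± 3.85 CPM (SD, n = 6 each).

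Amotl2 also made up most of the angiomotin level per length. With the median length its share of the summed level was 99.2% in stretched knockdown against 97.7% in stretched control cells, and 99.1% in non-stretched knockdown against 97.6% in non-stretched control cells. With the longest transcript the shares were 96% against 89.6% and 95.5% against 89%, and the remainder was almost all Amot, at 3.92% against 10.3% and 4.4% against 10.8%. The move of Amotl2 and the opposite move of Amot both enter these shares.

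**Figure D3:**
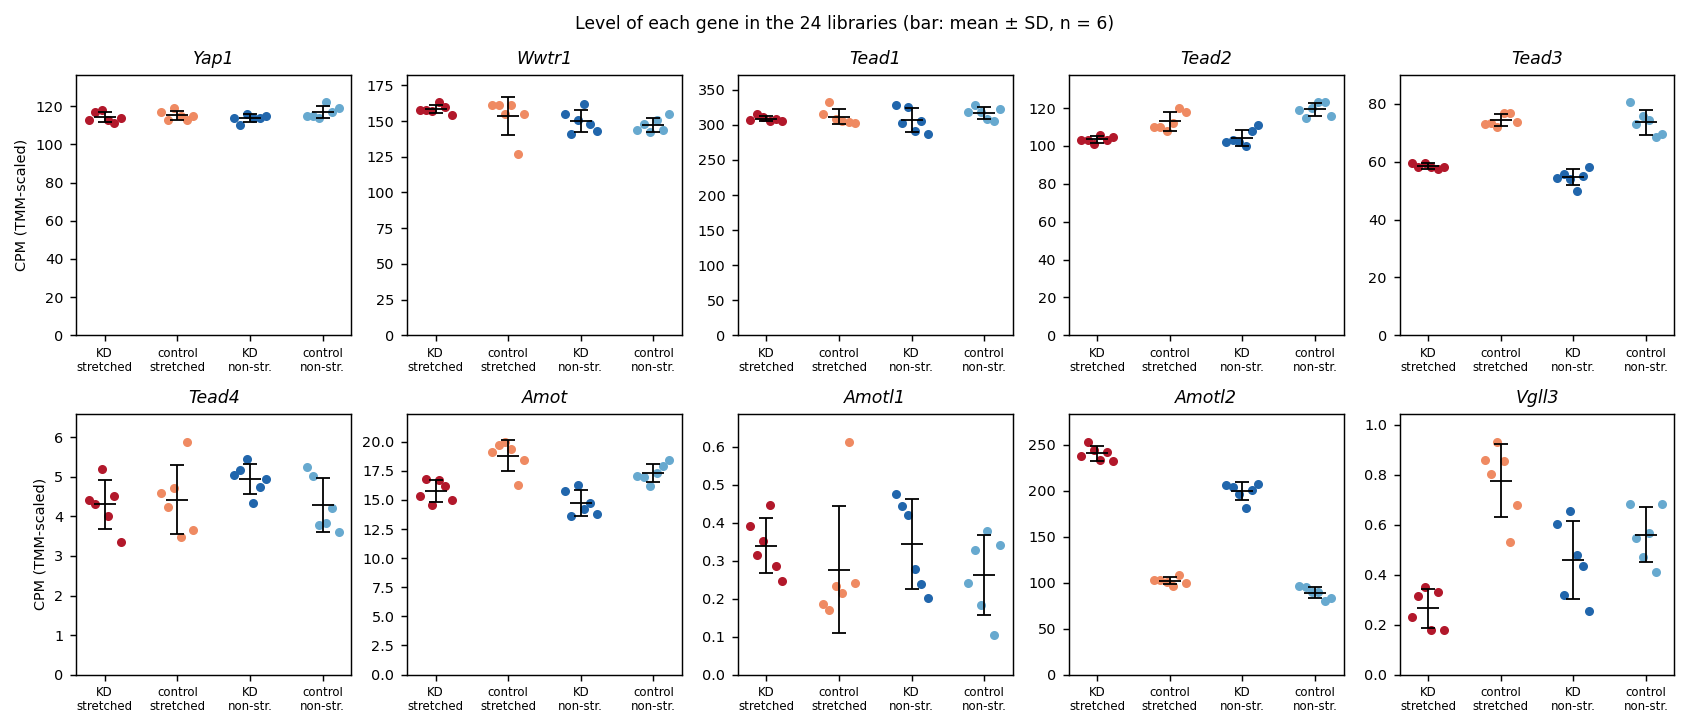
Level of each of the 10 genes in the 24 libraries, in TMM-scaled CPM from 0 on the vertical axis, with points for libraries and bars for the mean ± SD of the 6 libraries of a group. Amotl2 runs from 80.1 to 253 CPM with its groups apart, Tead3 splits by knockdown, and Yap1 and Tead1 are level across groups.

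Vgll3 encodes a cofactor that binds TEAD in place of YAP and is known from the muscle lineage, at chr16:65815257-65866368 on the plus strand. It was low, with 7.8 to 44.5 estimated counts in a library. Its lowest, median and highest levels were 0.179, 0.273 and 0.352 CPM in stretched knockdown libraries, against 0.531, 0.828 and 0.931 CPM in stretched control libraries. They were 0.253, 0.458 and 0.655 CPM in non-stretched knockdown libraries, against 0.41, 0.557 and 0.682 CPM in non-stretched control libraries. The stretched groups were apart, with the stretched control cells highest and the stretched knockdown cells lowest of all 4, while the non-stretched groups overlapped widely.

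For the knockdown, the log2 fold change of Vgll3 was -1.56 with stretch (SE 0.228, adjusted p = 1.6e-06) and -0.29 without (SE 0.218, adjusted p = 0.257). Stretch gave -0.78 in knockdown cells (SE 0.24, adjusted p = 0.0396) and 0.49 in control cells (SE 0.207, adjusted p = 0.167). The call in knockdown cells was lost with no filter (adjusted p = 0.0541), in a fit of the knockdown groups alone (0.0656), with the authors' scaling (0.146) and without non-stretched knockdown replicate 4 (0.0604). The stretch responses differed by -1.27 (SE 0.317, unadjusted p = 0.000459, adjusted p = 0.114). Without stretched control replicate 5 this was -1.34 and passed (adjusted p = 0.0392), and over the other alternatives for which edgeR gave a value the adjusted p ran from 0.112 to 0.218.

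Of the other Vgll genes, Vgll1 and Vgll2 were too low to be tested. Vgll4, whose product is known to compete with YAP for TEAD, averaged 14.3 ± 0.793 CPM in stretched knockdown against 18 ± 1.23 CPM in stretched control cells, and 14.3 ± 1.09 CPM in non-stretched knockdown against 19.2 ± 1.32 CPM among non-stretched control cells (SD, n = 6 each). It fell by 0.34 with stretch (SE 0.0558, adjusted p = 1.07e-05) and by 0.43 without (SE 0.0553, adjusted p = 2e-07), and stretch gave 0.00 in knockdown and -0.09 in control cells (adjusted p = 0.991 and 0.357).

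The genes whose pattern over the 24 libraries was most like that of Amotl2 and Tead3 were picked by the root mean square difference in log2 CPM after centring each gene, among 10983 genes whose mean log2 CPM was 1 or more. For Amotl2, whose own root mean square deviation was 0.616, these were Krt80, a keratin, at 0.149, Tmem72, a membrane protein, at 0.158 and Tbx3, a transcription factor of the cardiac conduction system, at 0.159. Their knockdown log2 fold changes were 0.92, 1.08 and 1.04 with stretch and 1.02, 1.26 and 0.95 without, beside 1.24 and 1.16 for Amotl2. For Tead3, whose own deviation was 0.205, they were Trim8, a ubiquitin ligase, at 0.0418, Flna, which encodes the actin crosslinker filamin A, at 0.0464 and St5 at 0.0491. Their knockdown values were -0.34, -0.37 and -0.37 with stretch and -0.42, -0.41 and -0.47 without, beside -0.34 and -0.43 for Tead3. Likeness in these libraries is a description and was chosen from the same values.

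Of 7 genes of the Hippo kinase core, the kinases and scaffolds that phosphorylate YAP, 0 were called for the knockdown with stretch, also at an unadjusted p under 0.05 and by DESeq2. Among all genes 25.1% rose and 26.9% fell there. Without stretch 2 of the 7 fell, where 28% of all genes rose and 29.7% fell. These were Sav1, a scaffold, at -0.15 (SE 0.0286, adjusted p = 7.85e-05) and Lats2, a kinase, at -0.09 (SE 0.0287, adjusted p = 0.0065). Without stretched control replicate 5, Sav1 was called with stretch too. With library totals alone neither Sav1 nor Lats2 passed without stretch, and Lats2 stood at 0.04. The call of Lats2 was also lost with no filter and without non-stretched knockdown replicate 4 (-0.06 each, adjusted p = 0.135 and 0.0876). Stretch raised Lats2 in knockdown cells, by 0.12 (SE 0.0287, adjusted p = 0.00813), a call lost with the authors' scaling (0.13, adjusted p = 0.0608), and the value of Sav1 in control cells was -0.11 (adjusted p = 0.0227), a call lost with no filter and in a fit of the control groups alone (adjusted p = 0.0819 and 0.082). The median absolute log2 fold change of the 7 genes for the knockdown was 0.03 with stretch and 0.06 without, against 0.17 and 0.20 over all genes.

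Upstream of the core, 15 of 16 listed regulators were tested. With stretch 3 rose and 5 fell with the knockdown, where 25.1% of all genes rose and 26.9% fell, and without stretch 3 rose and 7 fell, where 28% rose and 29.7% fell. Mink1, a kinase that can act on LATS, rose by 0.28 and 0.21, Taok3, a kinase, by 0.16 with stretch, and Map4k2 by 0.13 without. Map4k4, a related LATS-activating kinase, fell by 0.23 and 0.34, Nf2, which encodes merlin, by 0.18 with stretch, and Wwc2 by 0.19 without. Non-stretched knockdown and control cells averaged 94.5 and 107 CPM for Nf2, and 26 and 25.7 CPM for Taok3. Stretched knockdown and control cells averaged 286 and 312 CPM for Wwc2, and 42.7 and 41.1 CPM for Map4k2. Stretch raised 1 of the 15 in knockdown cells, Map4k4, by 0.08 (SE 0.026, adjusted p = 0.0445), where 5.32% of all genes rose and 3.61% fell. In control cells 0 of the 15 were called for stretch, where 2.55% of all genes rose and 3.39% fell. There 3 of the 15 reached an unadjusted p under 0.05, DESeq2 called 0, and the fit without stretched control replicate 5 called Mink1 and Wwc2. The Map4k4 call for stretch was lost under 5 alternatives, among them the fit without non-stretched knockdown replicate 4 (0.07, adjusted p = 0.108), and with library totals alone Nf2 and Wwc2 no longer passed.

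Among 12 genes for proteins that bind YAP and TAZ or set their turnover, 7 rose and 1 fell with the knockdown in stretched cells, beside 25.1% and 26.9% of all genes, and 6 rose and 3 fell in non-stretched cells, beside 28% and 29.7%. Ptpn14, a phosphatase that holds YAP in the cytoplasm, rose by 0.56 with stretch and 0.63 without. Ptpn21, its relative, rose by 0.44 with stretch, and Ajuba, a LIM protein that restrains LATS, by 0.48 without. Ctnna1, which encodes alpha-catenin of adherens junctions, fell by 0.44 and 0.51. For stretch, edgeR called 0 of the 12 in knockdown and 0 in control cells, with 4 and 2 at an unadjusted p under 0.05, and DESeq2 called 1 in each. Of all genes, edgeR called 5.32% higher and 3.61% lower in knockdown cells, and 2.55% and 3.39% in control cells.

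Of the 12 angiomotin ligases and junction partners, the knockdown raised 1 and lowered 5 with stretch, where 25.1% of all genes rose and 26.9% fell. Without stretch it raised 0 and lowered 7, where 28% rose and 29.7% fell, and DESeq2 called 6 in all. Magi1, a junction scaffold, fell by 0.65 with stretch (SE 0.0278, adjusted p = 4.27e-17) and by 0.80 without (SE 0.0279, adjusted p = 4.2e-19). Mpdz, another scaffold with many PDZ domains, fell by 0.36 and 0.47. Mpp5, a polarity protein, rose by 0.16 with stretch (adjusted p = 0.0465), a call lost without stretched control replicate 5 (0.12, adjusted p = 0.11) and with the authors' scaling (0.14, adjusted p = 0.097). Stretch raised 1 of the 12 in knockdown cells, Magi1, by 0.14 (SE 0.0279, adjusted p = 0.00209), where 5.32% of all genes rose and 3.61% fell. In control cells 0 of the 12 were called for stretch, where 2.55% of all genes rose and 3.39% fell. There 2 of the 12 reached an unadjusted p under 0.05, DESeq2 called 0, and the fit without stretched control replicate 5 called Lin7c.

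The target signature holds 21 genes known to be activated by YAP and TEAD in other cells, of which 18 were tested, with Amotl2 counted apart. The knockdown raised 7 and lowered 5 of the 18 with stretch, where 25.1% of all genes rose and 26.9% fell, and raised 9 and lowered 7 without, where 28% rose and 29.7% fell. The median log2 fold change was 0.02 with stretch and 0.08 without, against 0.002 and 0.009 over all genes, and the median absolute change was 0.35 and 0.34, against 0.17 and 0.20. Stretch raised 3 and lowered 0 in knockdown cells (Ankrd1, Lats2 and Ctgf), where 5.32% of all genes rose and 3.61% fell, and raised 3 and lowered 0 in control cells (Ankrd1, F3 and Ctgf), where 2.55% rose and 3.39% fell. At an unadjusted p under 0.05 there were 6 in each kind of cell, and DESeq2 called 4 in each. Without stretched control replicate 5, Nuak2 was lower in stretched control cells (-0.22, adjusted p = 0.0252), beside 3 that rose. The call of Lats2 was lost with the authors' scaling. Lats2 and Ptpn14 are also in lists described above.

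Ankrd1, a cardiac ankyrin repeat protein, averaged 375 ± 16.4 CPM in stretched knockdown against 210 ± 21.7 CPM in stretched control cells, and 289 ± 15.4 CPM in non-stretched knockdown against 137 ± 17.1 CPM among non-stretched control cells (SD, n = 6 each). It rose with the knockdown by 0.83 (SE 0.0675, adjusted p = 8.12e-11) with stretch and by 1.08 (SE 0.0681, adjusted p = 4.67e-13) without, in the same direction as Amotl2. Ctgf and Cyr61, the secreted matricellular proteins most used as YAP readouts and named here after their values were seen, also rose with the knockdown. Ctgf averaged 158 ± 12 CPM in stretched knockdown against 86.3 ± 6.44 CPM in stretched control cells, and 121 ± 12.4 CPM in non-stretched knockdown against 65.5 ± 13.1 CPM among non-stretched control cells (SD, n = 6 each). Its log2 fold changes were 0.87 (adjusted p = 5.39e-08) and 0.88 (adjusted p = 4.59e-08), and those of Cyr61 were 0.88 (adjusted p = 0.000219) and 0.75 (adjusted p = 0.000967).

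Other targets went the other way with the knockdown. Asap1, a regulator of Arf GTPases, fell by 0.32 with stretch and 0.40 without. F3, which encodes tissue factor, fell by 0.44 with stretch, and Rbms3, an RNA-binding protein, by 0.43 without. Both were also lower on average in the other setting. F3 averaged 22.4 CPM in non-stretched knockdown against 28.7 CPM in non-stretched control cells. Rbms3 averaged 42.7 CPM in stretched knockdown against 56.7 CPM in stretched control cells. Ctgf also rose with stretch, by 0.39 in knockdown cells (SE 0.0963, adjusted p = 0.0119) and 0.40 in control cells (SE 0.099, adjusted p = 0.019), as Amotl2 did. Cyr61 did not pass for stretch in either kind of cell (0.32, adjusted p = 0.288, in knockdown and 0.19, adjusted p = 0.585, in control cells). The interaction was called for 0 of the 63 tested genes of these lists, against 0.0208% of all genes. At an unadjusted p under 0.05 it picked out 12 of the 63, against 9.4% of all genes. DESeq2 called 2 of them and 122 genes in all. The fit without stretched control replicate 5 called 1 of them, Magi1, and 109 genes in all (0.753%).

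**Figure D4:**
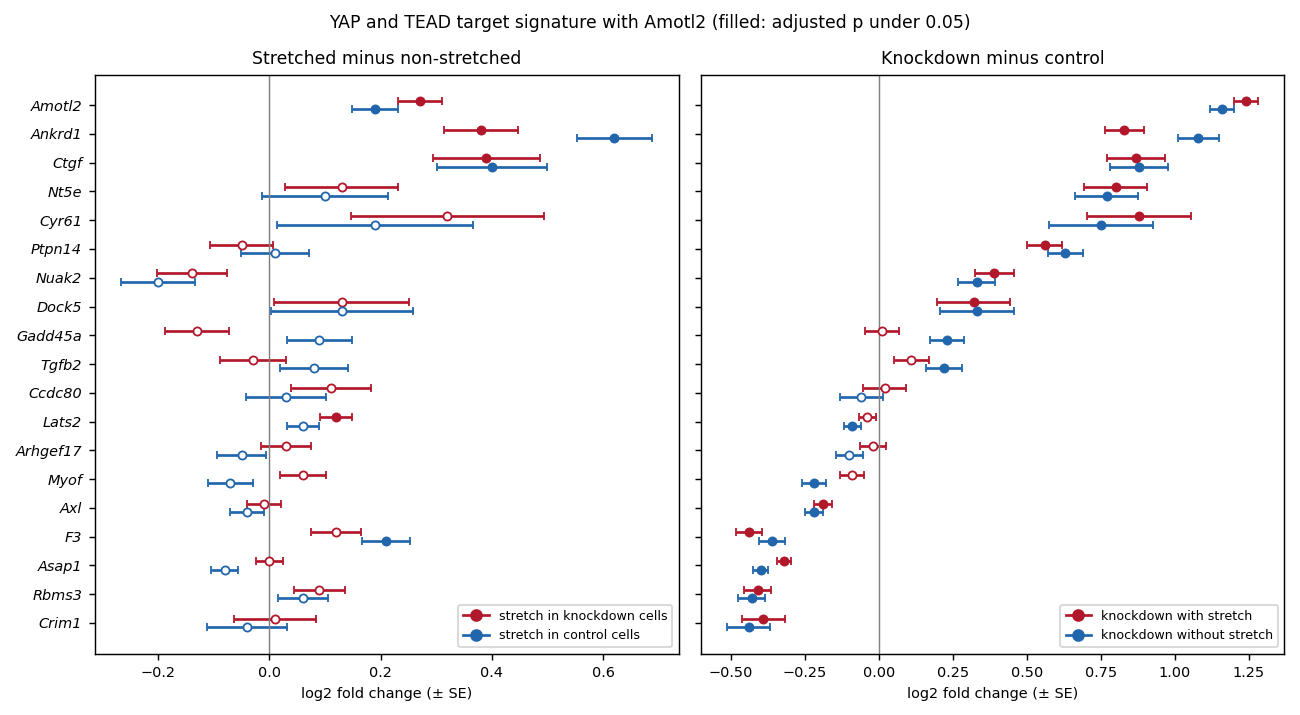
Log2 fold change with its SE for the tested genes of the YAP and TEAD target signature and Amotl2, for stretch (left panel) and for the knockdown (right panel), with filled points where the adjusted p was under 0.05. The knockdown points lie on both sides of 0, with Amotl2, Ankrd1, Ctgf and Cyr61 on the higher side in both settings and Asap1 on the lower side, while the stretch points lie closer to 0.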

How the data were processed

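Poly(A) messenger RNA of 24 HL-1 libraries was sequenced with a stranded kit, per the labels. The first table deposited by the authors holds an estimated count per protein-coding gene and library, not normalized. The second gives these genes as normalized signal, made by the authors with a step no label describes, and was used only as an alternative scaling. Per the submitters' processing notes the tools were kallisto 0.44.0 and DESeq2 1.18.1 under R 3.4.4, with build GRCm38.p6. The annotation release is not given in the sources used here, and 36.6% of the deposited values were whole within 1e-09. Genes of a family can share reads, and how the counting split them is not stated.

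Estimated counts were rounded and fitted with edgeR 4.0.16 in R 4.3.3, with TMM factors, filterByExpr (minimum count 10, minimum total 15), robust quasi-likelihood dispersion with 20 residual degrees of freedom and Benjamini-Hochberg adjustment over all 14411 tested genes at 0.05. The model held 1 coefficient per group, and all 24 libraries shared its spread. Intervals are 95% and SE are from the F statistic. The fit was tested on simulated data. The genes and lists were chosen with earlier results of these data known. All 10 genes of the set were named. From each list up to 2 called genes per direction with the smallest adjusted p were named, 1 of which is not reported here, and likeness was listed for the 2 well-expressed genes of the set with the largest called fold change. In the list of junction partners Patj was read from its older symbol Inadl. Positions and lengths are from GENCODE vM21, which gave a length for 18373 of 20351 genes (90.3%), and promoters from RefSeq. The 60 pairs of replicates within groups differed beyond sampling noise, with a chi-square per gene of at least 2.8. Alternatives were DESeq2 1.42.0, its size factors, no filter, only the groups compared, a left-out library, a replicate block and the authors' scaling. Library totals alone and a second left-out library were added after seeing the data.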

Additional observations from a re-analysis of the deposited data

Results flagged for a closer look

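In each group of 6 libraries the highest and the lowest value of each of the 10 genes were compared with their nearest neighbour, in 40 groups in all. In 2 of them a single library lay far from the others, and chance gives about 1 such case in 20 groups. Both were stretched control replicate 5, the library with the fewest counts. Wwtr1 stood there at 127 CPM, with the nearest library of its group at 155 CPM and a gap of 0.813 of the group's range. Amotl1 stood there at 0.613 CPM, with the nearest at 0.242 CPM and a gap of 0.838 of the range.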

How the results depend on the processing

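Of 437 fold changes of the 10 genes under an alternative, 411 kept their direction and side of the threshold, 7 lost and 9 gained a call with the same sign, and 10 turned in sign, of which 4 (Yap1 and Tead1 for the knockdown, with library totals alone) also gained a call. Of 377 of the listed genes and Trim63, 357 kept both, 16 lost a call and 4 turned. Library totals alone and the fit without non-stretched knockdown replicate 4 were chosen after seeing the data. With library totals alone the knockdown raised 5 and lowered 1 of the 10 genes without stretch, and raised 4 and lowered 3 with stretch. On that scale 9453 of all 14411 genes were called for it without stretch and 8748 with stretch. Yap1 then stood at 0.09 and 0.10, Tead1 at 0.09 and 0.10, Tead4 at 0.09 with stretch, Lats2 at 0.04 without and the Trim63 interaction at -0.01. Without stretched control replicate 5, stretch raised 3 and lowered 1 of the 10 in control cells, the knockdown with stretch raised 2, the interaction lowered 1, Tead4 stood at -0.06 for stretch in control cells and 0.06 for the knockdown with stretch, and the interaction was -0.02 for Trim63. For Wwtr1 the interaction was -0.03 without that library and 0.02 without non-stretched knockdown replicate 4. With no filter, Amotl1 was 0.01 for stretch in control cells, Tead1 0.01 for the knockdown with stretch and the Trim63 interaction -0.01. Members lowered by stretch in knockdown cells numbered 0 with no filter, with only the groups compared, with the authors' scaling and without non-stretched knockdown replicate 4, and stretch in control cells raised 2 with the authors' scaling. Over all genes, stretch in control cells called 857 genes, against 377 with only the groups compared, 566 with the authors' scaling and 976 and 2023 without non-stretched knockdown replicate 4 and stretched control replicate 5, and 64.5% of its calls were higher with library totals against 42.9%. The interaction called 3 genes, against 122 with DESeq2, 109 without stretched control replicate 5, 9 with the replicate block and 1 each with the authors' scaling and library totals. With the longest transcript in place of the median length, non-stretched control cells had Tead1 at 33.5% and Amotl2 at 89% of their families. The cause of these changes was not tested. Same-numbered libraries shared little of their deviation from the group means, with correlations of -0.06 to 0.14 and 1 of 24 pairs over 0.1. The same-numbered library was the best match in 3 of 6 pairs for the knockdown with stretch, and in 1 of 6 in each other comparison. These values cannot exclude that the numbers pair the libraries. The replicate block changed no call of the 10 genes. The low counts of Amotl1 and Vgll3 limit what could be seen of them.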
